A study of Mus musculus with 2 samples.

Results

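Swallowing a dying cell requires the macrophage to push its membrane out and around the target, and this is done with actin. The 40 genes described here encode that machinery, from the ELMO and DOCK proteins that switch on Rac to the Arp2/3 complex that branches filaments and the proteins that recycle them. They were chosen as a list by function, with earlier results of these data known. All 40 were found by symbol among the 32285 genes of the deposited matrices.

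The cells were sorted as CD45, CD11b and CD64 positive from mouse hearts, from the infarct and its border, 3 days after myocardial infarction, and profiled in droplets with a 3′ tag kit. There was 1 library labelled CD40 KO, called the KO-labelled library below, and 1 library labelled WT. The labels name neither the allele, the strain, the age nor how many mice were pooled. With 1 library in each group there is no replicate and no test: intervals are exact 95% intervals that cover counting error only, and a gene is called higher or lower by size alone, at 1.3-fold.

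As background, engulfment receptors signal through adaptors such as CRK and p130Cas to the ELMO and DOCK pair, which loads Rac with GTP. Rac and Cdc42 then act through WAVE and WASP proteins on the Arp2/3 complex, which grows a branched network under the membrane. Profilin feeds actin monomers to this network, cofilin severs old filaments, and capping and severing proteins such as CapG and gelsolin shape it. Macrophages of the infarct use the same parts to crawl and to clear dead cardiomyocytes and neutrophils.

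The KO-labelled library had 90057108 UMIs (unique molecules) over 8146 barcodes, and the WT library 139343516 UMIs over 10624 barcodes. Filters and the removal of likely doublets kept 7399 barcodes of the KO-labelled library and 7191 of WT. Clusters formed without the 40 genes gave a monocyte/macrophage-like class of 2371 barcodes in the KO-labelled library and 5216 in WT, with median depths of 15507 UMIs (KO-labelled) and 11726 UMIs (WT). All 18 of the class's markers stood at 10 CPM (UMIs scaled to a total of 1000000 per class and library) or more in both libraries, and together they stood at 16440 CPM in KO-labelled and 22899 CPM in WT barcodes. The libraries stand apart before any gene is compared. Over the mitochondrial limit were 216 barcodes of the KO-labelled library and 1860 of WT, and under the UMI or gene minimum 2 of the KO-labelled library and 1547 of WT. Cluster 3 held 5.38% of kept barcodes in the KO-labelled library and 32.8% in WT, and endothelial-like barcodes made up 0.162% (KO-labelled) and 2.59% (WT). Cluster 0 held 59.1% of kept barcodes in the KO-labelled library and 0.598% in WT, at median depths of 3204 UMIs (KO-labelled) and 2494 UMIs (WT). Macrophage markers scored highest in it, but since nearly all of it came from 1 library it was given no cell type and its values are shown separately. Cluster 0 counts in the totals of the shares above. With it the macrophage-like class made up 32.0% (KO-labelled) and 72.5% (WT) of kept barcodes, and without it 78.4% (KO-labelled) and 73.0% (WT). *Cd40* itself stood at 15.9 CPM in the KO-labelled library and 18.3 CPM in WT, and a 3′ tag outside the deleted part of an allele checks nothing about the label. Marker genes of other cell types were summed in the class for comparison: neutrophil markers stood at 211 CPM in KO-labelled and 164 CPM in WT barcodes, fibroblast markers at 42.7 CPM in KO-labelled and 18.5 CPM in WT barcodes and endothelial markers at 125 CPM in KO-labelled and 443 CPM in WT barcodes, and *Cd3d* and *Cd3g* of T cells were at 0 in the KO-labelled library. Their part in the ratios was not tested. The files shared 23 barcode sequences, 11 of them kept in both.

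Most of the machinery was present in macrophage-like cells of both libraries. Of the 40 genes 38 had a mean of at least 10 CPM in the class and are called measured here. The 2 others are adaptors. *Gulp1*, an adaptor of engulfment receptors, had 5 UMIs in the KO-labelled library and 5 in WT, and *Bcar1*, which encodes p130Cas, had 39 in the KO-labelled library and 14 in WT. Both were seen in fibroblast-like barcodes, *Gulp1* at 50.7 CPM in KO-labelled and 57.7 CPM in WT barcodes and *Bcar1* at 16.9 CPM in KO-labelled and 24.2 CPM in WT barcodes. Endothelial-like barcodes had them too, *Gulp1* at 46.3 CPM (KO-labelled, 12 barcodes) and 72.5 CPM (WT) and *Bcar1* at 52.9 CPM (KO-labelled) and 48.6 CPM (WT). *Dock1*, the DOCK protein of many non-blood cells, stood at 68.0 CPM in KO-labelled and 66.0 CPM in WT barcodes in the class, against 138 CPM in KO-labelled and 141 CPM in WT fibroblast-like and 364 CPM in KO-labelled and 441 CPM in WT endothelial-like barcodes.

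Other members divided the cell classes the opposite way. *Dock2*, *Was*, *Vav1*, *Coro1a*, *Fermt3* and *Myo1f* are known as genes of blood cells. Together they stood at 1258 CPM in the KO-labelled library and 1213 CPM in WT in macrophage-like cells, and at 1459 CPM in KO-labelled and 1562 CPM in WT dendritic-like, 1870 CPM in KO-labelled and 1923 CPM in WT neutrophil-like and 2083 CPM in KO-labelled and 2599 CPM in WT T or NK-like barcodes. *Dock2* and *Coro1a* were the main parts of the sum in WT T or NK-like barcodes, at 1521 CPM and 881 CPM. *Vav1* and *Myo1f* stood at 22.4 CPM each there (5 UMIs each), under their macrophage-like levels given below. In fibroblast-like barcodes, which should lack these genes, the 6 together stood at 154 CPM (137 to 171) in the KO-labelled library and 52.4 CPM (45.3 to 60.2) in WT. Endothelial-like barcodes had 377 CPM in KO-labelled and 54.6 CPM in WT barcodes, the first from 12 barcodes. The sum outside blood cells was thus higher in the KO-labelled library, with *Dock2* and *Coro1a* its main parts. *Myo1f* in fibroblast-like barcodes was at 6.76 CPM in KO-labelled and 9.93 CPM in WT barcodes, and *Was* in endothelial-like barcodes had 0 UMIs in the KO-labelled library and 3 in WT. The part of such counts in the ratios below was not tested.

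**Figure D1:**
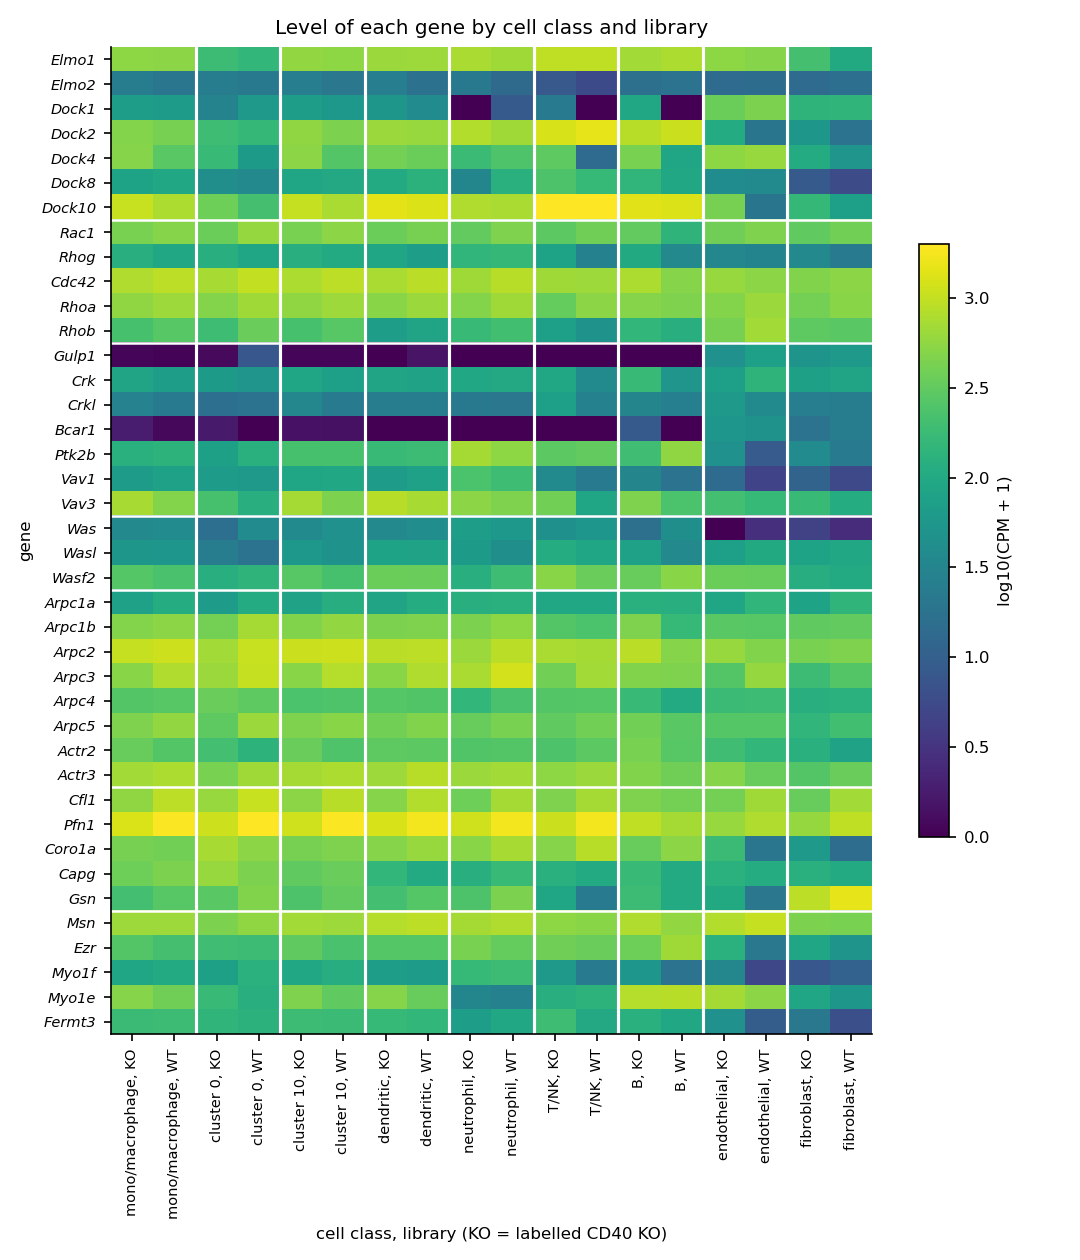
Level of each of the 40 genes, as log10(CPM + 1), in each cell class (columns, the KO-labelled library left of WT). Colours compare classes along a row: *Gulp1* and *Bcar1* are dark in macrophage-like, dendritic-like and neutrophil-like barcodes, and *Was* is dark in fibroblast-like and endothelial-like barcodes.

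Between the libraries, a few members were higher and a few lower in the KO-labelled library. The higher ones were *Dock4*, *Vav3*, *Dock10*, *Myo1e* and *Actr2*, and the lower ones *Cfl1*, *Arpc3*, *Pfn1*, *Arpc1a* and *Gsn*. Of the 38 measured genes 5 passed 1.3-fold upward, 5 passed it downward and 28 lay within it. Of 7586 measured genes 19.3% were that much higher and 10.4% that much lower, so the shares among the members, 13.2% each way, lie near the background. The members had a median log2 ratio of −0.08, against 0.09 for all measured genes. With median-of-ratios scaling 2 members, *Dock4* and *Vav3*, were higher and 7 lower, against 13.2% and 15.3% of measured genes.

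**Figure D2:**
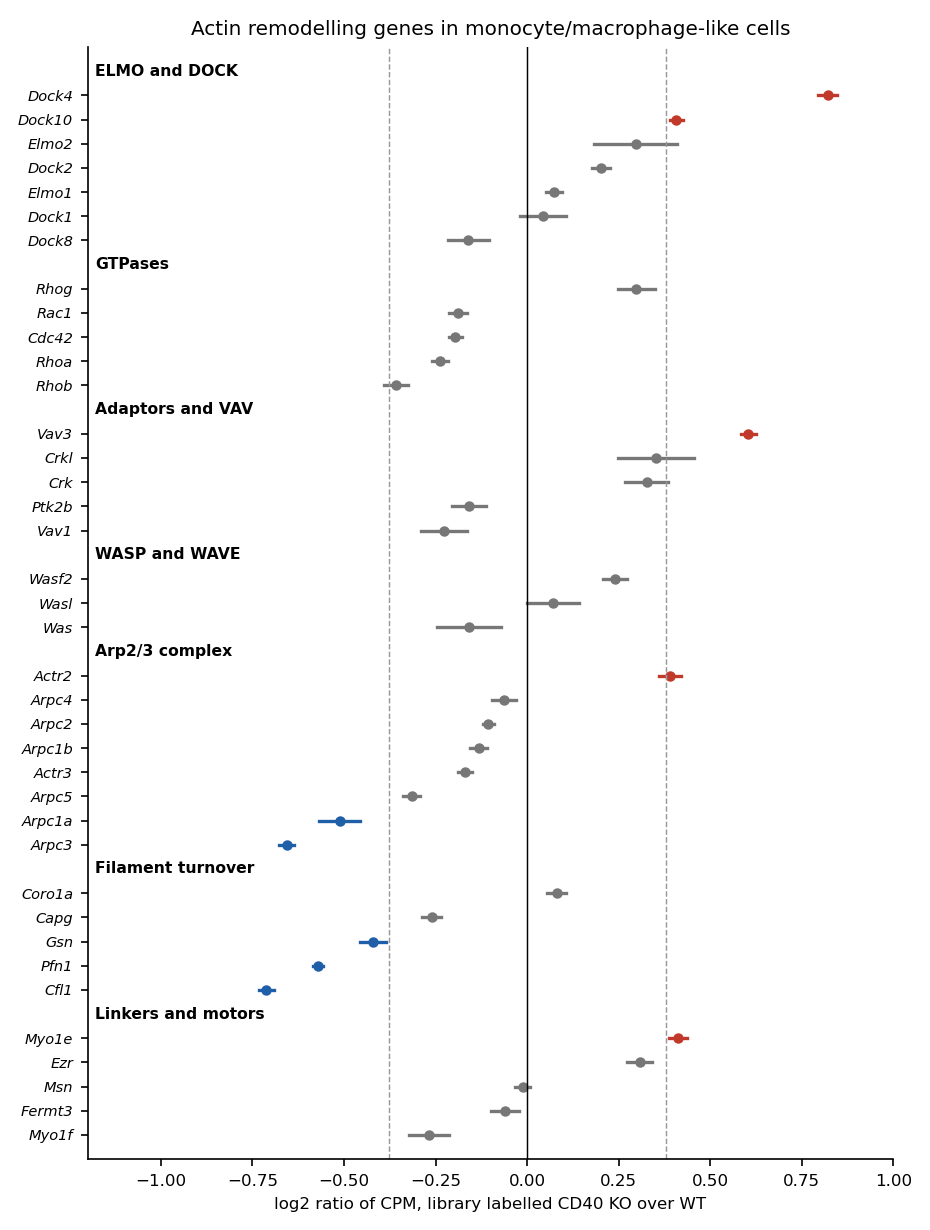
Log2 ratio of CPM in macrophage-like cells, KO-labelled library over WT, with exact 95% counting intervals, for the 38 measured genes by role. Dashed lines mark 1.3-fold. *Dock4* (0.82) lies farthest right and *Cfl1* (−0.71) farthest left.

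ELMO proteins bind DOCK proteins, and together they act as exchange factors that load Rac-family GTPases. *Dock4*, a DOCK protein that activates Rac, stood at 503 CPM in the KO-labelled library and 285 CPM in WT, a log2 ratio of 0.82 (0.79 to 0.85). *Dock10*, an exchange factor for Cdc42 and Rac, stood at 1049 CPM in KO-labelled and 791 CPM in WT barcodes (0.41, 0.39 to 0.42). The other 5 of the family differed by less than 1.3-fold. *Dock2*, the main Rac exchange factor of leukocytes, stood at 481 CPM in KO-labelled and 419 CPM in WT barcodes (0.20) over the class. Within the 4 clusters described below its ratio lay between −0.02 and 0.19, and it was above 0 in 2 of them. *Dock8*, a Cdc42 exchange factor, stood at 82.3 CPM in KO-labelled and 92.0 CPM in WT barcodes (−0.16). *Elmo2* stood at 23.0 CPM in KO-labelled and 18.7 CPM in WT barcodes (0.30). *Elmo1*, the partner of DOCK2 in leukocytes, stood at 555 CPM in KO-labelled and 528 CPM in WT barcodes (0.07) over the class, but at −0.02 with median-of-ratios scaling and below 0 in each of the 4 clusters described below. *Dock1* was nearly level at 0.04 (−0.02 to 0.11), and at −0.05 with that scaling.

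Among adaptors and VAV exchange factors the 2 VAV genes went opposite ways. *Vav3*, an exchange factor for Rac, stood at 738 CPM in the KO-labelled library and 485 CPM in WT (0.60, 0.58 to 0.63). *Vav1*, its relative of blood cells, stood at 65.0 CPM in KO-labelled and 76.2 CPM in WT barcodes (−0.23, −0.29 to −0.17), short of 1.3-fold. The adaptors *Crk* (83.8 CPM in KO-labelled and 66.9 CPM in WT barcodes, 0.33) and *Crkl* (28.1 CPM in KO-labelled and 22.0 CPM in WT barcodes, 0.35) stood close to each other in ratio, just inside the limit. *Ptk2b*, which encodes the kinase PYK2, stood at 122 CPM in KO-labelled and 136 CPM in WT barcodes (−0.16).

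*Rhog*, which recruits ELMO, stood at 116 CPM in the KO-labelled library and 94.3 CPM in WT (0.30, 0.25 to 0.35). *Rac1*, the central switch of engulfment, stood at 436 CPM in KO-labelled and 497 CPM in WT barcodes (−0.19). *Cdc42* (815 CPM in KO-labelled and 933 CPM in WT barcodes, −0.20) and *Rhoa* (556 CPM in KO-labelled and 656 CPM in WT barcodes, −0.24), which drive filopodia and contraction, lay beside it. *Rhob*, an immediate early gene, stood at 216 CPM in KO-labelled and 276 CPM in WT barcodes (−0.36, −0.39 to −0.32). Of 19 other immediate early and dissociation genes 1 passed 1.3-fold upward, 7 passed it downward and 11 lay within it, with a median of −0.17 and a summed level of 9117 CPM in KO-labelled and 11067 CPM in WT barcodes. Their part in the ratio of *Rhob* was not tested.

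The nucleation promoting factors differed little. *Wasf2*, the WAVE protein of macrophages, stood at 265 CPM in the KO-labelled library and 225 CPM in WT (0.24). *Wasl*, which encodes N-WASP, stood at 55.1 CPM in KO-labelled and 52.5 CPM in WT barcodes (0.07, −0.002 to 0.14), and at −0.02 with median-of-ratios scaling. *Was*, its blood cell relative that is mutated in Wiskott-Aldrich syndrome, stood at 34.4 CPM in KO-labelled and 38.4 CPM in WT barcodes (−0.16).

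Subunits of the Arp2/3 complex differed among themselves. *Actr2*, which encodes the actin-related protein Arp2, stood at 338 CPM in the KO-labelled library and 258 CPM in WT (0.39, 0.36 to 0.42). *Actr3*, which encodes its partner Arp3, stood at 704 CPM in KO-labelled and 792 CPM in WT barcodes (−0.17, −0.19 to −0.15). *Arpc3* stood at 519 CPM in KO-labelled and 818 CPM in WT barcodes (−0.66, −0.68 to −0.64), so 2 members of the same complex passed 1.3-fold in opposite directions. With median-of-ratios scaling *Actr2* stood at 0.30, above 0 and short of that limit, and *Arpc3* at −0.75. The paralogs *Arpc1a* and *Arpc1b* encode alternative forms of 1 subunit. *Arpc1a* stood at 75.8 CPM in KO-labelled and 108 CPM in WT barcodes (−0.51, −0.57 to −0.46) and *Arpc1b*, the form typical of blood cells, at 488 CPM in KO-labelled and 535 CPM in WT barcodes (−0.13, −0.16 to −0.11). *Arpc2* (1032 CPM in KO-labelled and 1111 CPM in WT barcodes, −0.11), *Arpc4* (261 CPM in KO-labelled and 273 CPM in WT barcodes, −0.06) and *Arpc5* (461 CPM in KO-labelled and 574 CPM in WT barcodes, −0.32) were below 0 and short of 1.3-fold.

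Of the 5 genes of filament turnover 3 passed 1.3-fold downward, and *Cfl1* had the lowest ratio of the 38. *Cfl1*, which encodes cofilin, stood at 569.9 CPM in the KO-labelled library and 934 CPM in WT (−0.71, −0.73 to −0.69). *Pfn1*, which encodes profilin, stood at 1288 CPM in KO-labelled and 1913 CPM in WT barcodes (−0.57, −0.58 to −0.56). *Gsn*, which encodes gelsolin, stood at 206 CPM in KO-labelled and 275 CPM in WT barcodes (−0.42, −0.46 to −0.39). *Capg*, the macrophage capping protein, was short of 1.3-fold at 375 CPM in KO-labelled and 449.5 CPM in WT barcodes (−0.26), and lay between −0.20 and 0.06 in the 4 clusters. *Coro1a*, which encodes the leukocyte coronin, was the 1 of this group above 0, at 416 CPM in KO-labelled and 394 CPM in WT barcodes (0.08), but stood at −0.01 with median-of-ratios scaling and below 0 in each of the 4 clusters.

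Linkers and motors tie the network to the membrane. *Myo1e*, a class I myosin of phagocytic cups, stood at 503 CPM in the KO-labelled library and 378 CPM in WT (0.41, 0.39 to 0.44), while its relative *Myo1f* stood at 86.0 CPM in KO-labelled and 104 CPM in WT barcodes (−0.27). The same contrast held for the linkers ezrin and moesin only in part: *Ezr* stood at 260.1 CPM in KO-labelled and 210.2 CPM in WT barcodes (0.31) and *Msn* at 656 CPM in KO-labelled and 661 CPM in WT barcodes (−0.01, −0.03 to 0.01). *Fermt3*, which encodes the integrin activator kindlin-3, stood at 175 CPM in KO-labelled and 182 CPM in WT barcodes (−0.06). Just inside the limit of 1.3-fold lay *Crkl* and *Rhob*, and just outside it *Actr2*, *Dock10*, *Myo1e* and *Gsn*.

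The share of macrophage-like barcodes with a UMI put 3 leading genes on the same sides once every barcode was thinned to 3000 UMIs, which left out 55 barcodes in the KO-labelled library and 159 in WT. *Dock4* was seen in 63.8% of KO-labelled and 50.3% of WT barcodes after thinning, and in 90.8% (KO-labelled) and 81.7% (WT) before it. *Vav3* was seen in 80.7% of KO-labelled and 69.9% of WT barcodes, and in 96.8% (KO-labelled) and 93.0% (WT) before thinning. *Cfl1* was seen in 76.9% of KO-labelled and 91.1% of WT barcodes, and in 95.4% (KO-labelled) and 97.1% (WT) before thinning. For *Dock2*, fibroblast-like barcodes give the level of a cell type that should lack the gene: 7.14% (KO-labelled) and 3.03% (WT) after thinning there, against 71.0% (KO-labelled) and 67.6% (WT) for the macrophage-like class. Before thinning, the fibroblast-like barcodes were the deeper ones, with medians of 28915 UMIs (KO-labelled) and 22302 UMIs (WT).

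The stretches before the start of 4 called genes are shown as examples of either side of the contrast. They belong to the 2 highest and 2 lowest of the called members with a single start in the RefSeq table (build GRCm38.p6), and they are printed 5′ to 3′ on the gene's strand up to the base before the first annotated start, with matches to 6 motifs in capitals. The motifs were GGGCGG (SP1), TGANTCA (AP-1), TGACGTCA (CRE), GAGGAAGT (PU.1), CCGGAAGT (ETS) and the CArG box of serum response factor, on both strands. No motif holds another in full.
*Dock4*, chr12:40445803-40445951, plus strand: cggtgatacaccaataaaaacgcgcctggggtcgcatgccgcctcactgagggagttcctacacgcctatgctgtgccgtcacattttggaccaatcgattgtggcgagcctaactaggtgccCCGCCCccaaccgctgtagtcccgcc
*Myo1e*, chr9:70207100-70207349, plus strand: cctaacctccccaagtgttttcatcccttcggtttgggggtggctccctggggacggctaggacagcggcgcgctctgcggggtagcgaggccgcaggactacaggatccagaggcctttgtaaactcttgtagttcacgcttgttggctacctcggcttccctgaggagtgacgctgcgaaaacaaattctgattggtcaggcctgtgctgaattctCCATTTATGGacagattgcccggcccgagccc
*Cfl1*, chr19:5490205-5490454, plus strand: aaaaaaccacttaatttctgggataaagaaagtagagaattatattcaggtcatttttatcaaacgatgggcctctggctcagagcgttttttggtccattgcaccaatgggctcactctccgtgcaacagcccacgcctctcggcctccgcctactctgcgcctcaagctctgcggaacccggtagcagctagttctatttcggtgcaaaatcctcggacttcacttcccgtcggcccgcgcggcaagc
*Arpc3*, chr5:122391628-122391877, plus strand: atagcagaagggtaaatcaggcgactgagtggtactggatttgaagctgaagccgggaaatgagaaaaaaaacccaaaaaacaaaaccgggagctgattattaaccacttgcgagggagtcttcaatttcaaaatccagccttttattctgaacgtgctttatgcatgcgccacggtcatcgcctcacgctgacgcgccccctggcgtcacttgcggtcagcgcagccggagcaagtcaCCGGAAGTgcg

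*Dock4* held an SP1 match, *Myo1e* a CArG box, *Arpc3* an ETS match just before its start, and *Cfl1* none of the 6 in this window. The stretch shown for *Dock4* was 149 bases long, against 250 for each of the others. The table had 49 starts for 38 of the 40 members, the exceptions being *Rac1* and *Ptk2b*. In the 250 bases before a start, 32 of the 49 (65.3%) held an SP1 match, against 32.742% of all 32851 starts. An ETS match stood before 4 (8.16%), against 2.877% of all, and the 4 genes were *Arpc1a*, *Arpc3*, *Arpc4* and *Actr3*, all of the Arp2/3 complex. AP-1 matches stood before 2 starts, against 6.749% of all, PU.1 matches before 2, against 2.441%, and a CRE match before 1, against 1.546%. A CArG box stood before 2, *Arpc4* and *Myo1e*, against 1.467% of all. These are matches of letters and not sites of binding. The shares of all starts include genes not measured here, and no share over measured genes alone was taken. A gene with several starts counts once for each.

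The libraries differed in their mix of macrophage states, so the ratios were taken again within the 4 clusters of the class. Cluster 3, led by *Cd5l*, *Gpnmb* and *Lpl*, held 398 barcodes in the KO-labelled library and 2360 in WT. Cluster 4, led by *Plcb1*, *Plac8* and *Met*, held 1257 in the KO-labelled library and 1603 in WT. Cluster 5, of cycling cells with *Top2a* in the lead, had 461 KO-labelled and 559 WT barcodes, and the interferon cluster 6, led by *Ifit3*, had 255 KO-labelled and 694 WT barcodes.

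Most members had the same sign in every cluster. Of the 38 measured genes 11 (28.9%) were above 0 in all 4 clusters and 20 (52.6%) below 0 in all 4, against 35.7% and 24.7% of the 6953 genes measured in every cluster, and 7 were mixed. In every cluster 1 member (2.63%) passed 1.3-fold upward and 4 (10.5%) downward, against 5.94% and 3.54% of those genes. These 5 were *Dock4* (0.57 to 0.72), *Arpc3* (−0.66 to −0.60), *Cfl1* (−0.86 to −0.63), *Pfn1* (−0.66 to −0.45) and *Arpc1a* (−0.66 to −0.43). *Vav3* passed it in clusters 3, 4 and 5 (0.41, 0.48 and 0.39) and stood at 0.33 in cluster 6. *Dock10* was smaller within clusters than over the class, at 0.19 and 0.20 in clusters 3 and 4 and 0.36 and 0.33 in clusters 5 and 6. *Actr2* was above 0 in all 4 clusters and past 1.3-fold in 1 of them, cluster 3 (0.49).

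The balance of higher and lower members differed among clusters. In cluster 3, 4 of the 38 members (10.5%) were higher and 4 (10.5%) lower, against 15% and 8.02% of its measured genes. Cluster 4 had 5 (13.2%) and 5 (13.2%), against 13.6% and 11.7%. Cluster 5 had 3 (7.89%) and 7 (18.4%), against 16.6% and 10.5%, and the interferon cluster 6 had 3 (7.89%) and 10 (26.3%), against 22.3% and 16.3%. With each cluster given equal weight 3 members were higher and 5 lower, against 14% and 8.87% of measured genes. In cluster 6 the lower members included *Arpc5* (−0.62), *Was* (−0.58), *Rhoa* (−0.50) and *Rac1* (−0.45), which were short of 1.3-fold over the class.

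**Figure D3:**
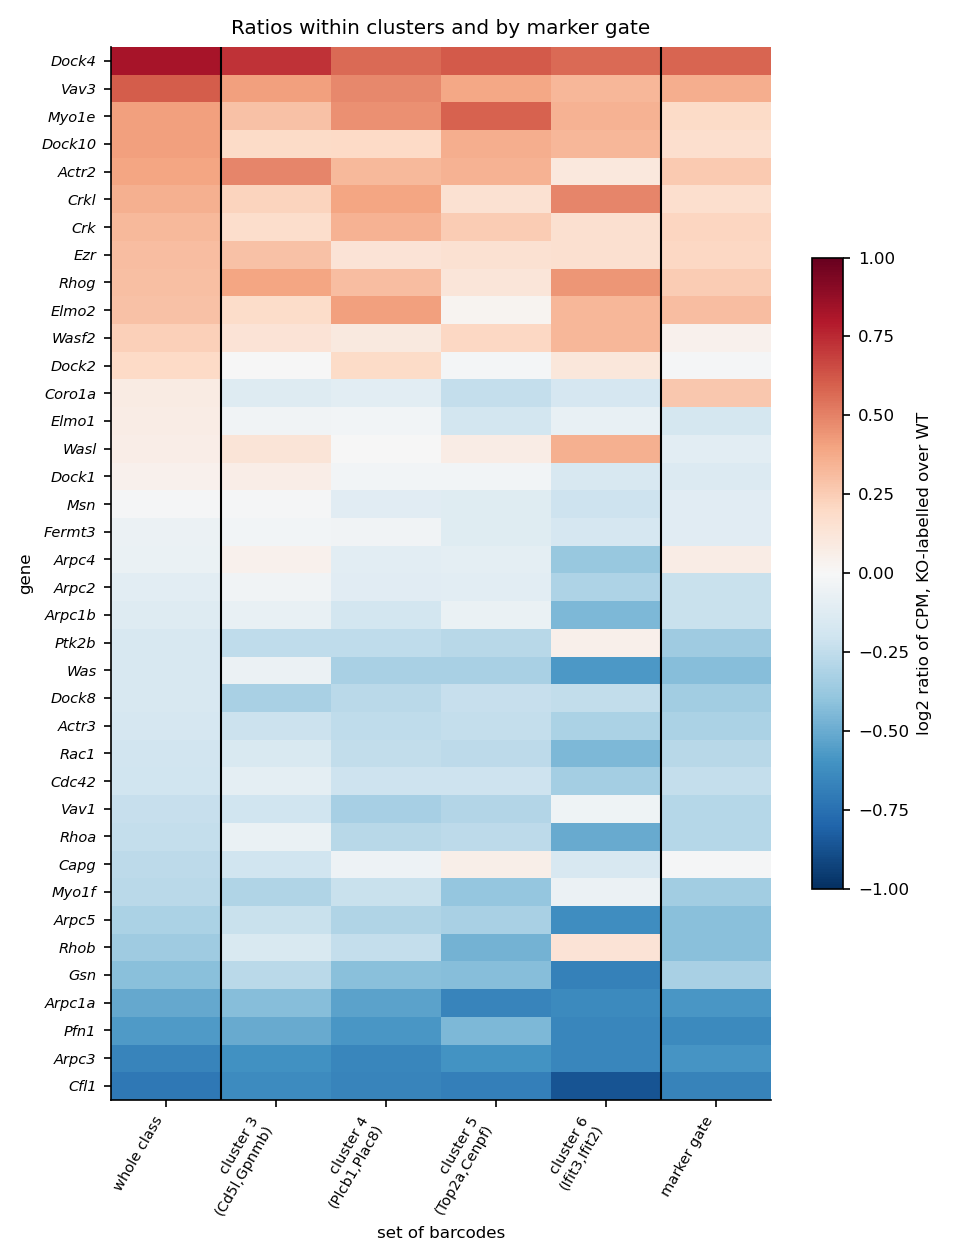
Log2 ratio of CPM, KO-labelled library over WT, for the 38 measured genes (rows, ordered by the ratio over the class) in the whole class, in its 4 clusters and in barcodes gated by markers. *Dock4* at the top is red in every column and *Arpc1a*, *Pfn1*, *Arpc3* and *Cfl1* at the bottom are blue in every column.

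The lower cofilin, profilin and *Arpc3* levels were not limited to macrophage-like cells. In dendritic-like barcodes *Cfl1* stood at 496 CPM in the KO-labelled library and 826 CPM in WT (−0.73, −0.84 to −0.63). In neutrophil-like barcodes it stood at 376 CPM in KO-labelled and 706 CPM in WT barcodes (−0.91, −1.28 to −0.55), and in fibroblast-like barcodes, which are not blood cells, at 344 CPM in KO-labelled and 698 CPM in WT barcodes (−1.02, −1.14 to −0.90). Endothelial-like and T or NK-like barcodes had ratios of −0.72 and −0.64, and B-like barcodes, with 12 KO-labelled and 29 WT cells, 0.16 (−0.41 to 0.75). For *Cfl1*, *Pfn1* and *Arpc3* alike, the counting interval lay below 0 in 5 of the 6 other classes, B-like barcodes being the exception. There the interval of *Pfn1* lay above 0. The remaining lower members varied more: *Arpc1a* had an interval below 0 in 2 of the 6 classes, and *Gsn* below 0 in 3 and above 0 in 2.

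The higher members were above 0 in part of the other classes too. For *Dock4*, *Dock10* and *Vav3* the counting interval lay above 0 in 4 of the 6 other classes each, for *Myo1e* in 3 and for *Actr2* in 2. No interval of theirs lay below 0, but *Dock4*, *Actr2* and *Myo1e* had ratios below 0 in 2 classes each. *Dock4* had 0.17 (0.04 to 0.31) in dendritic-like barcodes, −0.45 (−1.02 to 0.09) in neutrophil-like and 1.05 (0.76 to 1.34) in fibroblast-like barcodes. In T or NK-like barcodes it had 41 UMIs in the KO-labelled library and 3 in WT (4.48, 2.83 to 6.81), where the first came from 12 cells. *Vav3* had 0.27 (0.17 to 0.36) in dendritic-like and 0.66 (0.45 to 0.87) in fibroblast-like barcodes. The counts of blood cell genes in fibroblast-like and endothelial-like barcodes given above were also higher in the KO-labelled library, and their part in these ratios was not tested.

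**Figure D4:**
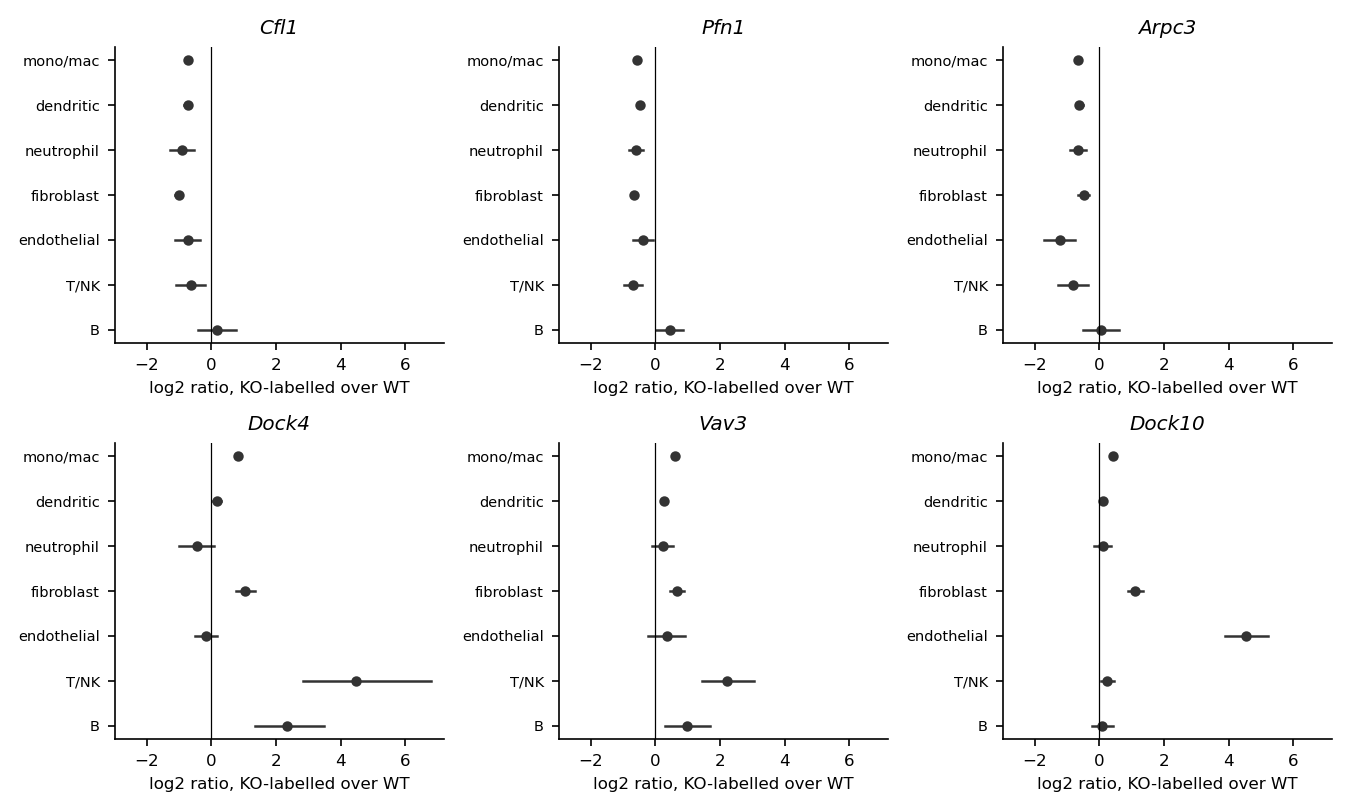
Log2 ratio of CPM, KO-labelled library over WT, with exact 95% counting intervals, for 6 called genes in 7 cell classes. *Cfl1*, *Pfn1* and *Arpc3* lie left of 0 in all classes but B-like barcodes, and *Dock4*, *Vav3* and *Dock10* spread widely, farthest in classes with 12 cells in the KO-labelled library.

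In cluster 0, set against the class of the same library, about as large a share of the members was past 1.3-fold as of all genes. Within the KO-labelled library, 4 of the 38 (10.5%) passed 1.3-fold upward in cluster 0 relative to the macrophage-like class and 20 (52.6%) downward, near the 13.9% and 50.2% of all measured genes. Relative to the WT class 2 (5.26%) passed it upward and 24 (63.2%) downward, against 13.6% and 48.5%. The exchange factors and the myosin at the high end of the class were low in cluster 0: *Vav3* stood at 217 CPM there and 738 CPM in the class (−1.77), *Dock4* at 168 CPM in cluster 0 and 503 CPM in the class (−1.58), and *Myo1e* at 170 CPM in cluster 0 and 503 CPM in the class (−1.57). The 4 higher members were *Coro1a* (732 CPM in cluster 0 and 416 CPM in the class, 0.81), *Capg* (619.9 CPM in cluster 0 and 375 CPM in the class, 0.72), *Gsn* (285 CPM in cluster 0 and 206 CPM in the class, 0.47) and *Arpc4* (354 CPM in cluster 0 and 261 CPM in the class, 0.44). *Cfl1*, at 624 CPM in cluster 0 and 569.9 CPM in the class (0.13), and *Arpc3*, at 634 CPM in cluster 0 and 519 CPM in the class (0.29), stayed below their WT class levels of 934 and 818 CPM in both.

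Some counts depended on whether cluster 0 was included. A gate on each barcode by macrophage markers let in 4342 of its barcodes in the KO-labelled library and 36 in WT. Of the 38 measured genes 1 was then higher and 7 lower, against 11.8% and 11.1% of measured genes. *Dock4* then stood at 0.59 and *Vav3* at 0.36, while *Cfl1* (−0.67), *Pfn1* (−0.64), *Arpc3* (−0.59) and *Arpc1a* (−0.58) passed 1.3-fold here too. With the same gate and no cluster 0 the counts were 5 and 5, against 19.1% and 10.9% of measured genes.

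The span of the gene ran along with both contrasts. Genes were split into 10 groups of equal size by the length of the gene from start to end. The median log2 ratio of all measured genes, KO-labelled library over WT in macrophage-like cells, was −0.09 in the shortest group (up to 4.92 kb) and 0.29 in the longest (from 125 kb). For cluster 0 over the class within the KO-labelled library the medians ran the other way, 0.38 in the shortest and −1.21 in the longest. Across the 38 measured members, which share the 2 libraries, Spearman's rank correlation between span and ratio was 0.51, and across 7583 measured genes with a position it was 0.36. The length of the transcript ran along with the ratio as well, with rank correlations of 0.62 over the members and 0.34 over all measured genes, and the parts of span and transcript length were not told apart.

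The called members spread over that range. *Dock4* spans 401 kb, *Vav3* 345 kb, *Dock10* 257 kb and *Myo1e* 192 kb, while *Cfl1* spans 4.75 kb and *Pfn1* 2.79 kb. *Arpc3* (22.3 kb), *Arpc1a* (24.9 kb), *Gsn* (51.5 kb) and *Actr2* (50.6 kb) lie in the middle. Less the median of genes of like span, *Dock4* stood at 0.53, *Vav3* at 0.31, *Myo1e* at 0.12 and *Dock10* at 0.12, while *Arpc3* stood at −0.71, *Cfl1* at −0.63, *Arpc1a* at −0.56, *Gsn* at −0.56 and *Pfn1* at −0.48. On this scale 1 member was higher and 8 lower, against 12.6% and 11.5% of measured genes. Long genes of the same family were not all higher: *Dock2* (557 kb), *Elmo1* (518 kb) and *Dock1* (503 kb) lay between −0.25 and −0.09 once centred. Whether intronic reads were counted is not stated, and their part in these ratios was not tested.

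**Figure D5:**
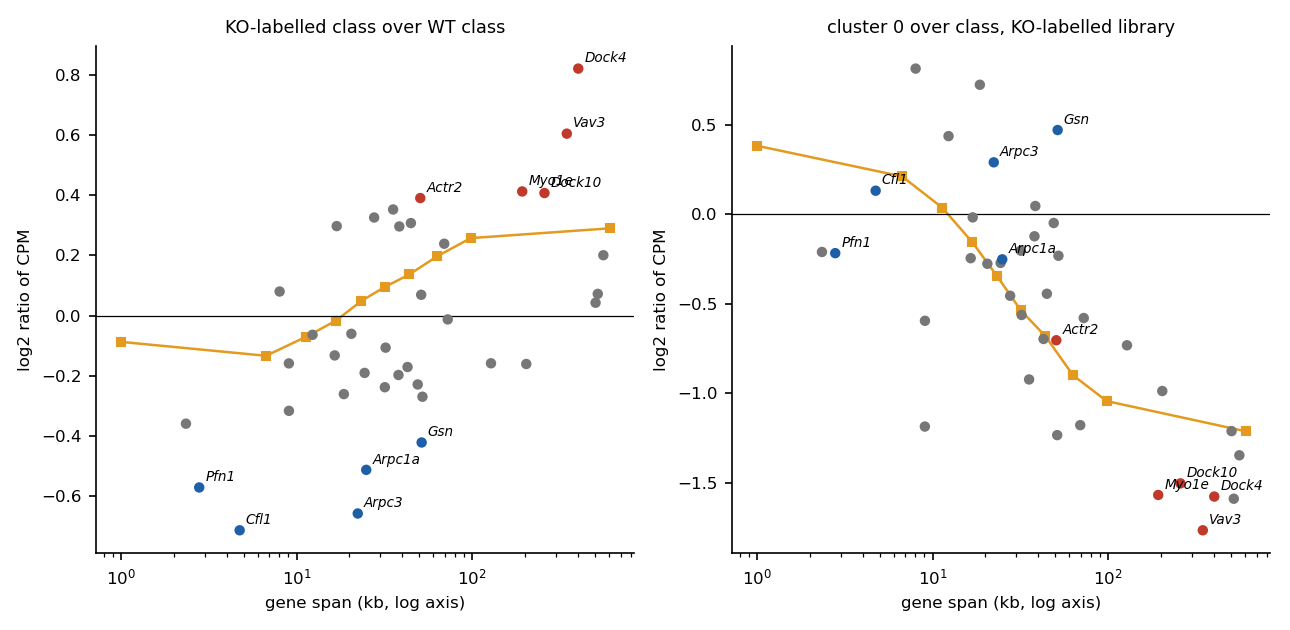
Log2 ratio of CPM against gene span (log axis) for the 38 measured genes (dots, red and blue where called between the libraries), with the medians of all measured genes in each of 10 groups by span (orange squares). Left, the KO-labelled library over WT in macrophage-like cells, where the medians climb with span. Right, cluster 0 over the class in the KO-labelled library, where they fall with span.

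A further list of 100 actin genes outside the 40 gave counts near the background too. Of 81 measured 15 (18.5%) passed 1.3-fold upward and 10 (12.3%) downward, and 56 lay within it, with a median of 0.11. Highest were *Scin* (1.63), which encodes a gelsolin relative, the formin *Fmnl2* (630 CPM in KO-labelled and 322 CPM in WT barcodes, 0.97), the Rac exchange factor *Tiam1* (94.4 CPM in KO-labelled and 51.1 CPM in WT barcodes, 0.89) and the myosin *Myo10* (0.82). Lowest were the GTPase *Rhoc* (−0.69), *Cotl1*, which encodes a filament-binding protein (647 CPM in KO-labelled and 1025 CPM in WT barcodes, −0.66), the blood cell GTPase *Rhoh* (−0.64) and *Brk1*, a WAVE complex subunit (236 CPM in KO-labelled and 342 CPM in WT barcodes, −0.54). *Actb*, which encodes the actin of these filaments, was nearly level at 13328 CPM in KO-labelled and 13163 CPM in WT barcodes (0.02), and *Tmsb4x*, which binds actin monomers, stood at 17616 CPM in KO-labelled and 24168 CPM in WT barcodes (−0.46). *Rac2* (−0.06) and *Nckap1l* (0.11), leukocyte genes of the Rac and WAVE step, lay in between.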

How the data were processed

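The authors deposited UMI counts, unnormalized, for each gene in each barcode. Per the file headers they came from Cell Ranger 7.0.1. STAR and the build mm10 are named in the submitters' processing notes, and the Chromium 3′ v3 kit in the labels' protocols. The shallowest deposited barcode had 1618 UMIs in the library labelled CD40 KO and 500 in WT. The members and lists were chosen with earlier results of these data known.

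Barcodes under 1000 UMIs or 500 genes, or over 10% mitochondrial UMIs, were left out. Scrublet, run in scanpy 1.11.5, marked 0 barcodes by its own threshold in either library, so the highest scores were removed at a fixed 0.8% per 1000 deposited barcodes (531 in the library labelled CD40 KO and 903 in WT). Counts were scaled to 10000 and logged, and 2000 variable genes without the actin genes, 30 components and 15 neighbours went into Leiden clustering (resolution 0.6, 14 clusters). Clusters were named by the marker list with the highest mean level, and 4 stayed unnamed. They came at least 95% from 1 library (cluster 0), had leading genes of another class (cluster 10), or were shallow with no marker among the leading 10 genes (clusters 2 and 12). These naming limits postdate a first look at the clusters. The marker gate took barcodes with at least 5 UMIs of macrophage markers and more of them per marker than of any other class.

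UMIs were summed per library and class. CPM have exact Poisson intervals and ratios exact conditional (Clopper-Pearson) intervals, and shares count barcodes with a UMI. Groups were not tested against each other. Genes with a mean of 10 CPM or more count as measured, and values are given for every measured member. Of the other actin genes, the 4 highest and 4 lowest and 4 preset genes are named. The ratio intervals and size calls were tested on simulated counts with known ratios. Those counts held counting error only, so the test does not cover differences between libraries or barcodes. A blastn search of the last 400 bases of each member against GENCODE vM21 transcripts (97% identity over 200 bases) found a like end in another gene for 1 member, *Actr3*, in a gene outside the deposited list. Positions and spans are from GENCODE vM21 (GRCm38), which need not be the authors' annotation. Tags count 1 end per molecule, so levels were not divided by length, and genes are not ranked by level.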

Additional observations from a re-analysis of the deposited data

Results flagged for a closer look

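*Rhob* went opposite ways in 2 clusters of the macrophage-like class. Its log2 ratio, library labelled CD40 KO over WT, was 0.138 in the interferon cluster 6 and −0.474 in the cycling cluster 5, with counting intervals on either side of 0. With 1 library per group the difference between the clusters was not tested. Immediate early and dissociation genes had a median of 0.18 in cluster 6 and −0.35 in cluster 5, and their part in the ratio was not tested.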

How the results depend on the processing

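Of 19 alternatives for single genes none turned the sign of a called member. *Dock4*, *Arpc1a*, *Arpc3*, *Cfl1* and *Pfn1* passed 1.3-fold in all 19, *Vav3* and *Gsn* in 16 each, *Myo1e* in 13, *Dock10* in 12 and *Actr2* in 10. Of the 28 members within 1.3-fold, 19 stayed within it in every alternative, while *Arpc5* did so in 15 and *Rhob* in 12. The main counts were 5 higher and 5 lower members, with a median log2 ratio of −0.08. Median-of-ratios scaling gave 2 higher, against 13.2% of measured genes, and a median of −0.18. A limit of 1.5-fold gave 2 higher and 2 lower, but no share of all genes is given at that limit. Thinning gave a median of −0.11 and equal weight per barcode −0.12. Equal weight per cluster gave 3 higher, against 14% of measured genes, and a median of −0.11. With cluster 0 let in, the marker gate gave 1 higher, against 11.8% of measured genes, and a median of −0.15. All kept barcodes gave 2 higher and −0.17, and the class plus unnamed clusters 1 higher and −0.15. For neither of these is a share of all genes given, so their counts are not set against the background. Among alternatives chosen after seeing the data, centring on genes of like span gave 1 higher, 8 lower and a median of −0.19. Of measured genes 12.6% were higher and 11.5% lower on that scale. Leaving out cluster 3 gave 3 higher, with no such share given. Leaving out any other cluster, keeping doublets, a 5% mitochondrial limit, no low filter, the other resolutions and clustering with the actin genes kept both counts within 1.5 times. Barcodes in alternative clusterings took the class of the reported cluster they mostly came from. No paired analysis was possible because each group has 1 library, and for the same reason no replicate could be left out.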

Other observations

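Cluster 10, which held macrophage and neutrophil genes together and was led by *Mirt1*, *Hdc* and *G0s2*, had 229 barcodes in the KO-labelled library and 886 in WT. In it *Cfl1* stood at 539 CPM (KO-labelled) and 876 CPM (WT), *Arpc3* at 510.2 CPM (KO-labelled) and 843 CPM (WT), *Dock4* at 539 CPM (KO-labelled) and 258 CPM (WT) and *Vav3* at 718 CPM (KO-labelled) and 440 CPM (WT). *Ptk2b* stood at 220.4 CPM in KO-labelled and 217 CPM in WT barcodes of cluster 10, against 122 CPM in KO-labelled and 136 CPM in WT barcodes of the macrophage-like class and 710.4 CPM in KO-labelled and 551 CPM in WT neutrophil-like barcodes.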
